A study of Mus musculus with 4 samples.

Results

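The 32 motile cilia genes described here encode parts of the beating cilium, from its master transcription factor Foxj1 to the dynein arms, radial spokes and tektins. They were chosen by name, matched to their Ensembl gene IDs, out of 26328 genes listed in at least 1 of 4 hippocampus samples. All 32 were listed in every sample. RNA-seq compared 2 WT mice with 2 Lsd1 KI mice, which carry the Lsd1 SA/SA alleles, in which the serine of LSD1 that PKCα phosphorylates is changed. LSD1 is a histone demethylase encoded by Kdm1a. All 4 samples were whole hippocampal tissue of male C57BL/6 mice, and the labels give an age of 8 to 15 weeks for the littermates used in behavioral experiments. Levels are given as RPKM, which divides the reads of a gene by its exon length and by the depth of the sample, so that levels of different genes can be compared.

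In the brain, motile cilia are carried mainly by ependymal cells, which line the ventricles and move the cerebrospinal fluid, and by the epithelium of the choroid plexus. Each cilium is built on a shaft of microtubule doublets, the axoneme. Dynein arms bend it, the nexin-dynein regulatory complex links neighbouring doublets, and radial spokes pass signals from the central pair of microtubules to the arms. Foxj1 and the RFX factors switch on the genes of this machinery, and neurons, which carry a single primary cilium, use only part of it. A dissected hippocampus borders the lateral ventricle, so ependyma and choroid plexus can be part of the tissue.

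RFX factors bind paired sites known as the X-box, one arm of which reads GTTGCC. On the opposite strand the same arm is written GGCAAC. Promoters from RefSeq (build GRCm38.p6, 250 bases before to 50 bases after a transcription start) were found for 27 of the 32 genes, as 30 promoters. GTTGCC was present on either strand in 13 of these 30 promoters (43.3%), against 12.5% of all 32851 promoters of that length. A forkhead site, TGTTTAC on either strand, was present in 2 of the 30 (6.67%), in Ak7 and Mlf1, against 3.65% of all promoters. The Mlf1 promoter held both motifs, TGTTTAC at -116 and GTTGCC at -105 bases from the start. The 2 motifs shared no letters in any promoter, and a match describes letters only. The windows printed here show this arm in capitals in genes of different axonemal parts, including 4 whose KI values lay outside the WT range.

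They lie at chr9:44240513-44240542 (Ccdc153, plus strand), chr11:72361880-72361909 (Tekt1, minus), chr5:124725083-124725112 (Dnah10, plus), chr17:25471586-25471615 (Tekt4, plus), chr4:126325693-126325722 (Tekt2, minus), chr5:30281370-30281399 (Drc1, plus) and chr8:110266952-110266981 (Hydin, plus), each read 5′ to 3′ on the gene's own strand.
Ccdc153: ctgagttttccaGTTGCCtggacaacgtgc
Tekt1: tgcgtccgtccgGTTGCCatagagaccgca
Dnah10: gctagggtcgccGTTGCCacggacgcccgc
Tekt4: caatgttccttaGGCAACcaggaaccttgc
Tekt2: gggcggttgctcGGCAACcagagccgcaaa
Drc1: ctgctttcccttGGCAACggcttgttccta
Hydin: tgcggttgctgtGGCAACagatggtaacaa

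**Figure D1:**
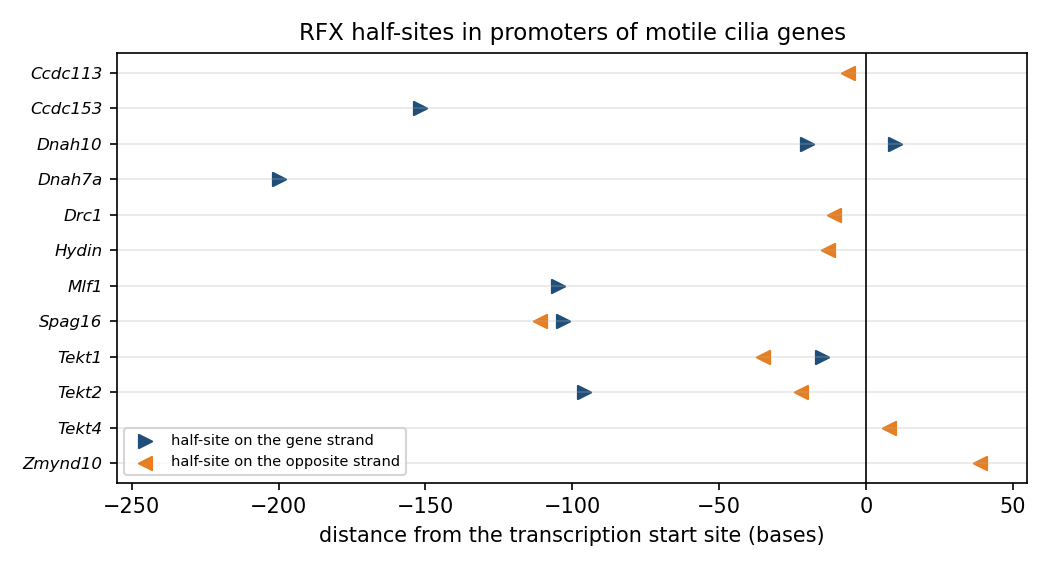
Position of the letters GTTGCC (right-pointing, on the gene strand) or GGCAAC (left-pointing, on the opposite strand) in the promoters of the 12 motile cilia genes that hold them, as the distance in bases from the transcription start at 0. For a gene with several annotated starts, the start nearest to a match is drawn. The match of Ccdc153 lies at -152 and the nearest one of Tekt1 at -15.

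The motile cilia genes were expressed at low levels in hippocampus. Their mean over the 4 samples ran from 0.0668 RPKM in Dnah7a to 7.66 RPKM in Ccdc39, with a median of 1.13 RPKM, against 2.40 RPKM over all listed genes. In all, 5 genes were at 4 RPKM or more (Ccdc39, Rsph1, Rsph9, Drc1 and Ccdc153), 12 were between 1 and 4 RPKM, and 15 were below 1 RPKM. Reads behind each gene and sample were worked out from the step that a single read makes in the RPKM, with an estimated depth of 8830000 mapped reads in WT replicate 2, the shallowest sample, to 14950000 in KI replicate 2. Single genes rested on 4 to 797 reads in a sample, and 10 of the 32 had fewer than 20 reads in at least 1 sample. Over all 32 genes WT held 3427 and 2190 reads and KI held 3589 and 3396. Kdm1a, the targeted gene, was at 11.6 and 11.2 RPKM in WT and 10.97 and 11.2 RPKM in KI (log2 fold change -0.04, adjusted p = 0.872 from limma). A change of 1 amino acid need not alter the RNA level, so this value does not check the genotype labels.

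**Figure D2:**
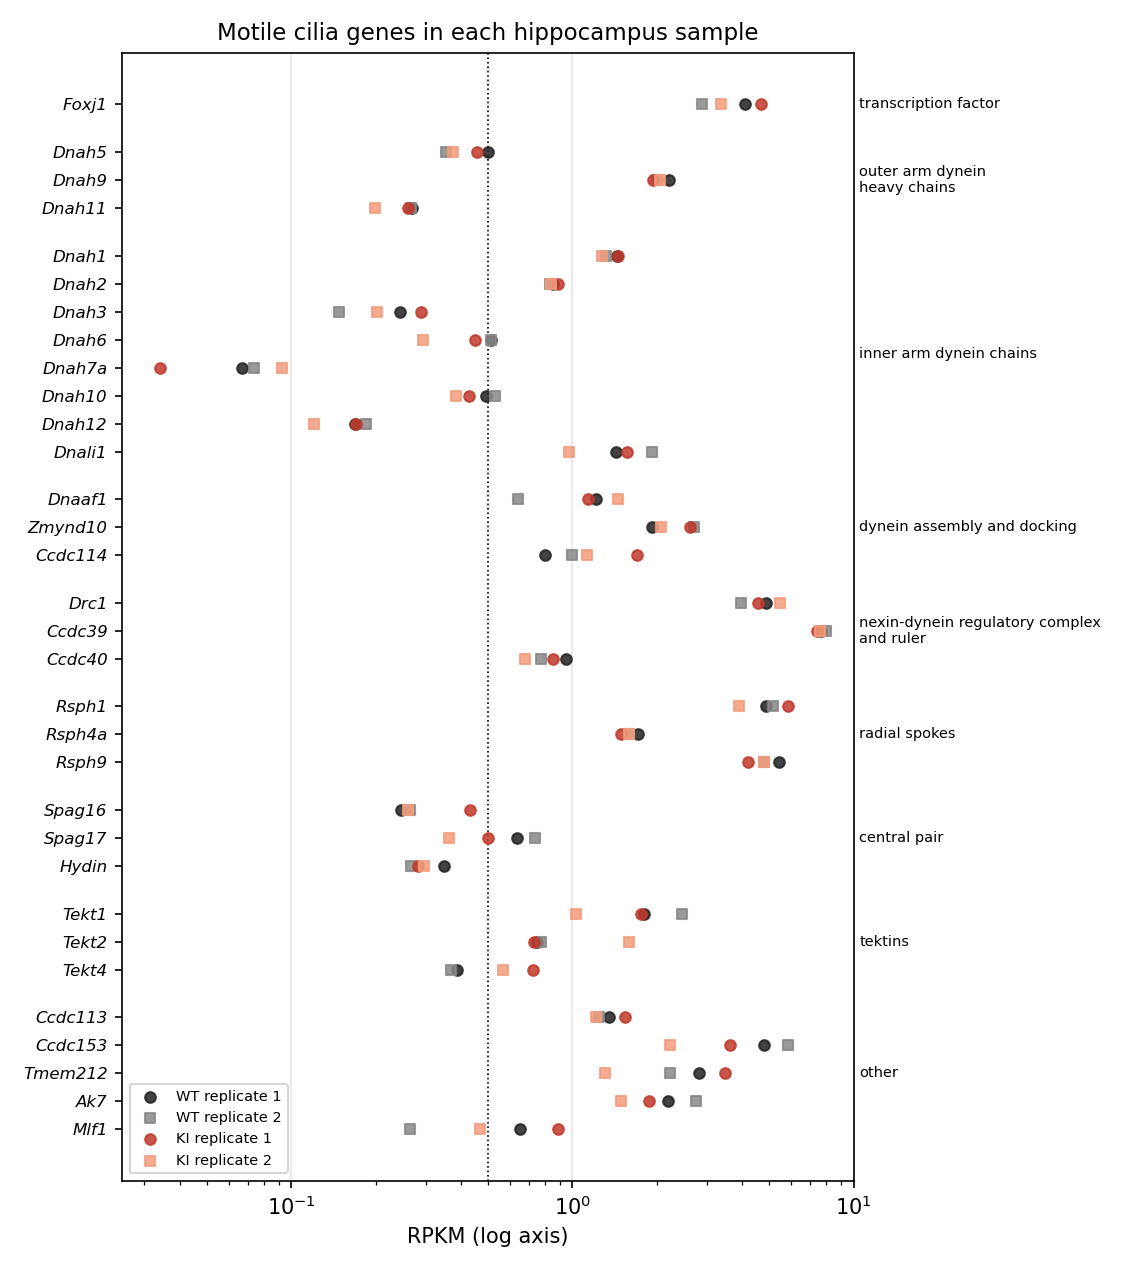
RPKM (log axis) of each of the 32 motile cilia genes in the 2 WT samples (black and grey) and the 2 KI samples (red and orange), grouped by the part of the cilium they encode. The dotted line marks 0.5 RPKM, the level a gene had to reach in at least 2 samples to be tested. In Ccdc153 and Ak7 both KI points lie left of both WT points, and in Ccdc114 and Tekt4 both lie right of them.

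To ask whether the Lsd1 mutation altered the expression of this machinery, KI was compared with WT by limma on log2(RPKM + 1) over 18436 genes, with Benjamini-Hochberg adjustment. Of the 32 genes, 24 reached the expression filter and were tested, and 0 of them met the threshold of adjusted p < 0.1 and at least 1.2-fold (0% of all genes tested). The smallest adjusted p among them was 0.475, for Ccdc153. Before adjustment, 2 of the 24 had a limma p under 0.05, Ccdc153 and Ak7, both lower in KI (3.33% of all tested genes), and 0 had one with a higher level in KI (6.3% of all tested genes). On the log2(RPKM + 1) scale, which understates the change of low genes, 19 of the 24 differed by less than 1.2-fold. The 95% limma interval of 23 of the 24 still reached 1.2-fold in at least 1 direction, and that of 12 reached 1.5-fold. For those genes, differences of that size lie within the intervals that 2 samples a group give. Since Dnah6 and Spag17 reached the filter only in WT and Tekt4 only in KI, the counts that follow are taken over all 32 genes.

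Both KI values lay below both WT values in 9 of the 32 genes (28.1%) and above them in 2 (6.25%), and the groups overlapped in 21. Over all listed genes these shares were 15.9% below and 21.2% above, and over the tested genes 18.1% and 24%. The 9 genes were Ccdc153, Ak7, Tekt1, Spag17, Rsph9, Dnah6, Dnah10, Dnah11 and Ccdc39, and the 2 were Ccdc114 and Tekt4. The median log2 fold change of the 32 was -0.03, against 0.01 over all listed genes. Over the 24 tested members it was -0.05, against 0.01 over all tested genes. Single values among the 32 ran from -0.70 in Ccdc153 to 0.34 in Ccdc114. With 2 against 2 samples, the smallest p of an exact permutation test is 0.333, so a separation of this kind in a single gene cannot pass a test by itself. The letters GTTGCC were found in 4 of the 11 genes whose groups were separated and in 8 of the 16 overlapping ones with a promoter.

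**Figure D3:**
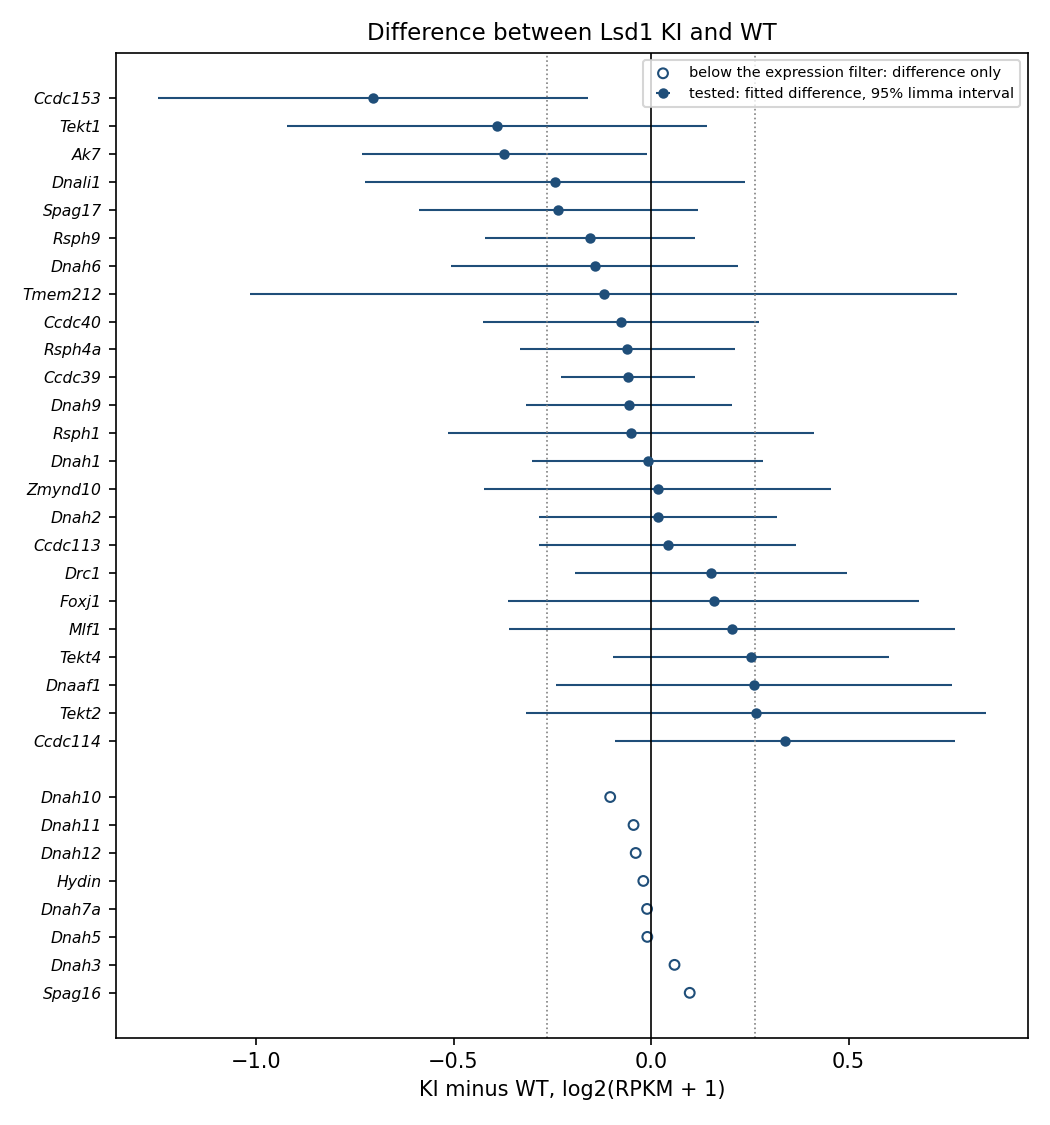
Difference between KI and WT on the log2(RPKM + 1) scale for the 32 motile cilia genes. Filled points are the 24 tested genes with their 95% limma interval, open points the 8 below the expression filter, and dotted lines mark a change of 1.2-fold. The interval excludes 0 in Ccdc153 and Ak7, before adjustment for multiple testing.

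Ccdc153 (ENSMUSG00000070306, chromosome 9, 44240676 to 44247306, plus strand, GRCm38) encodes a coiled-coil protein of the axoneme and is widely used as a marker of ependymal cells. It was at 4.80 and 5.84 RPKM in WT, on 140 and 112 reads, and at 3.65 and 2.22 RPKM in KI, on 114 and 72 reads. Both KI values lay below both WT values, and KI replicate 2 was the lowest. The means in WT and KI were 5.32 ± 0.73 and 2.93 ± 1.01 RPKM (SD, n = 2 each), so that KI stood at 0.551 of WT. The log2 fold change was -0.70 (standard error 0.21, 95% interval -1.25 to -0.16, unadjusted limma p of 0.0216, adjusted p = 0.475). Without KI replicate 2 it was -0.44 and without KI replicate 1 it was -0.97. The 250 bases before its start site (chr9:44240427-44240676, plus strand) hold 1 GTTGCC, in capitals.
Ccdc153: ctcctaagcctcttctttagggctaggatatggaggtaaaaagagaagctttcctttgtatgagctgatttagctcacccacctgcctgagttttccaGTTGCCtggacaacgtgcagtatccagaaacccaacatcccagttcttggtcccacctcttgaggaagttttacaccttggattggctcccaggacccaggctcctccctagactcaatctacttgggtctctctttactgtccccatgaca

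Ak7 (ENSMUSG00000041323, chromosome 12, 105705976 to 105782447, plus strand) encodes an adenylate kinase of motile cilia, which regenerates nucleotides for the dynein motors. It was at 2.19 and 2.75 RPKM in WT and at 1.87 and 1.49 RPKM in KI, on 91, 75, 83 and 69 reads. The groups did not overlap, and the means of WT and KI were 2.47 ± 0.39 and 1.68 ± 0.26 RPKM (SD, n = 2 each). The log2 fold change was -0.37 (standard error 0.14, unadjusted limma p of 0.0455, adjusted p = 0.511), and it lay between -0.49 and -0.26 as each sample was left out. The forkhead letters TGTTTAC stand in capitals in the 250 bases before its start site (chr12:105705732-105705981, plus strand), where GTTGCC is not found.
Ak7: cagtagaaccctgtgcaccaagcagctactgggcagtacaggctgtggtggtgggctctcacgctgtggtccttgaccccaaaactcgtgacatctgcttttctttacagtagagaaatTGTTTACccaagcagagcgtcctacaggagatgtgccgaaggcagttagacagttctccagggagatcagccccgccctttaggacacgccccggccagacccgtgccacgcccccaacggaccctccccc

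Foxj1 (ENSMUSG00000034227, chromosome 11, 116330704 to 116335399, minus strand), the forkhead factor that turns on the motile cilia program, varied between replicates of both groups. It was at 4.12 and 2.89 RPKM in WT and at 4.69 and 3.37 RPKM in KI. Replicate 1 was the higher sample in each group, and the groups overlapped. The log2 fold change was 0.16 (standard error 0.20, limma adjusted p = 0.834), with a 95% limma interval of -0.36 to 0.68. It turned to -0.04 without WT replicate 2 and to -0.03 without KI replicate 1, so no direction can be given for Foxj1.

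The heavy chains of the outer dynein arm, which drives the beat, were led by Dnah9, at 2.21 and 2.00 RPKM in WT and 1.93 and 2.04 RPKM in KI. The groups overlapped in Dnah9, which rested on 282 to 487 reads (log2 fold change -0.06, adjusted p = 0.895 from limma). Dnah5 and Dnah11, at means of 0.423 and 0.248 RPKM, were below the filter. Dnah11 was at 0.268 and 0.266 RPKM in WT and 0.260 and 0.199 RPKM in KI. The lower WT and the higher KI value of Dnah11, on 34 and 54 reads, lay close together.

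The inner dynein arms set the shape of the bend, and their 8 chains were at low levels. Dnali1, a light intermediate chain, had the highest mean of the 8, with 1.43 and 1.91 RPKM in WT and 1.56 and 0.972 RPKM in KI. KI replicate 2 was the lowest sample, and the groups overlapped. Among the heavy chains, Dnah1 was at 1.44 and 1.31 RPKM in WT and 1.45 and 1.28 RPKM in KI, and Dnah2 between 0.834 and 0.887 RPKM in the 4 samples. Dnah6 was at 0.512 and 0.513 RPKM in WT and 0.451 and 0.293 RPKM in KI, a ratio of means of 0.726 (adjusted p = 0.778 from limma). Dnah10 was at 0.492 and 0.531 RPKM in WT and 0.430 and 0.385 RPKM in KI. Both KI values of Dnah6 and of Dnah10 lay below both WT values, with KI replicate 2 the lowest in each. Dnah3, Dnah7a and Dnah12 were at means between 0.0668 and 0.221 RPKM, and their groups overlapped. Dnah7a has close paralogs, and since only uniquely mapped pairs were counted, its level is uncertain.

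Dynein arms are put together in the cytoplasm by assembly factors and then anchored on the doublets by a docking complex. Ccdc114, a part of that docking complex, was at 0.798 and 0.995 RPKM in WT and at 1.70 and 1.13 RPKM in KI, on 61, 50, 139 and 96 reads. The groups did not overlap, KI was higher, and KI replicate 1 was the highest sample. Its log2 fold change was 0.34 (standard error 0.16, limma adjusted p = 0.573), and it was 0.17 without KI replicate 1. The assembly factor Zmynd10 had the highest level of the 3 genes, with 1.91 and 2.71 RPKM in WT and 2.62 and 2.06 RPKM in KI. Dnaaf1, another assembly factor, was at 1.22 and 0.642 RPKM in WT and 1.13 and 1.45 RPKM in KI. The groups overlapped in both assembly factors. Of the annotated exon length, 20.7% in Dnaaf1 and 10.1% in Zmynd10 is shared with a gene on the opposite strand.

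Ccdc39 and Ccdc40 form the ruler that spaces the dynein arms and spokes along the axoneme, and Drc1 is a part of the nexin-dynein regulatory complex. Ccdc39 had the highest level of the 32 genes, with 7.67 and 8.01 RPKM in WT and 7.41 and 7.57 RPKM in KI. The KI values lay below the WT values by a small margin (log2 fold change -0.06, standard error 0.06, limma adjusted p = 0.808). Of its annotated exon length, 16.9% is shared with Ttc14 on the opposite strand, and the counting was not stated to use strand. Its partner Ccdc40 had a mean of only 0.813 RPKM, and Drc1 one of 4.73 RPKM, and both had overlapping groups.

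The radial spoke head genes were among the more abundant members. Rsph1 was at 4.87 and 5.16 RPKM in WT and at 5.85 and 3.91 RPKM in KI, so that the KI samples held both its highest and its lowest value. Rsph9 was at 5.44 and 4.81 RPKM in WT and 4.21 and 4.80 RPKM in KI. Although both KI values of Rsph9 lay below both WT values, WT replicate 2 and KI replicate 2 were nearly equal (log2 fold change -0.15, adjusted p = 0.665 from limma). Rsph4a had overlapping groups around a mean of 1.59 RPKM.

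Genes of the central pair, the core that the spokes touch, were low throughout. Spag17 was at 0.632 and 0.734 RPKM in WT and at 0.4997 and 0.362 RPKM in KI, on 72, 55, 61 and 46 reads. Both KI values lay below both WT values, a ratio of means of 0.631 and a log2 fold change of -0.24 (adjusted p = 0.621 from limma). Exons of Wdr3 and Spag17os, on the opposite strand, cover 15.7% of its exon length. Hydin and Spag16, the other two, were at means of 0.298 and 0.300 RPKM with overlapping groups.

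The tektins, filament proteins inside the doublets, differed among themselves in direction. Tekt1 was at 1.79 and 2.44 RPKM in WT and at 1.76 and 1.03 RPKM in KI, on 25 to 41 reads. Its KI values lay below both WT values, and KI replicate 1 nearly met WT replicate 1 (log2 fold change -0.39, adjusted p = 0.590 from limma). Tekt4 was at 0.389 and 0.370 RPKM in WT and at 0.726 and 0.568 RPKM in KI. Both KI values of Tekt4 were the higher ones, but it rested on 8 and 5 WT reads and 16 and 13 KI reads (log2 fold change 0.25, adjusted p = 0.593 from limma). Tekt2 was at 0.745 and 0.775 RPKM in WT, 0.732 RPKM in KI replicate 1 and 1.58 RPKM in KI replicate 2. The high value of Tekt2 thus stands in a single sample, and 20.8% of its exon length is shared with another annotated gene.

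Tmem212, a membrane protein gene used as an ependymal marker, depended most on single samples. It was at 2.81 and 2.21 RPKM in WT and at 3.50 and 1.31 RPKM in KI, on 27, 14, 36 and 14 reads. Its highest and lowest values both lay in KI, and its log2 fold change ranged over -0.60 to 0.36 when any 1 sample was removed. Ccdc113, a coiled-coil protein of the ciliary base and axoneme, was between 1.21 and 1.53 RPKM in the 4 samples. Mlf1, a Foxj1 target named for its place in a leukaemia fusion, rested on 4 to 22 reads. The groups overlapped in these genes.

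The summed level of the 32 genes was 57.7 and 56.8 RPKM in WT and 58.3 and 49.6 RPKM in KI, a ratio of KI to WT means of 0.942 (two-sided exact permutation p = 1). KI replicate 2 alone lay apart from the other three. Of the 32 genes, 14 had their lowest value in KI replicate 2 and 4 had their highest there, whereas 11 had their highest value in KI replicate 1. KI replicate 2 was lower than KI replicate 1 in 23 of the 32. WT replicate 2 held the highest value of 10 and the lowest of 9, and was lower than WT replicate 1 in 17. Shares over all genes were not taken for these counts, so they cannot be called particular to these genes. Without KI replicate 2 the ratio of the sums was 1.02, and without KI replicate 1 it was 0.867. In whole tissue, fewer ciliated cells and less RNA per ciliated cell cannot be told apart.

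The rest of the pathway was taken from lists of named genes. Of 104 other motile cilia genes, 102 were listed and 70 tested, and 0 passed an adjusted p of 0.1 with 1.2-fold in limma. Before adjustment 3 of the 70 had a p under 0.05, all lower in KI, against 3.33% of all tested genes. Vwa3a was at 3.47 and 3.60 RPKM in WT and 2.46 and 2.87 RPKM in KI (log2 fold change -0.31, adjusted p = 0.490 from limma). Morn5 was at 1.46 and 1.27 RPKM in WT and 0.779 and 0.656 RPKM in KI, on 14 reads or fewer. Dnajb13, a radial spoke protein gene, was at 0.626 and 1.03 RPKM in WT and 0.292 and 0.281 RPKM in KI. Both KI values lay below both WT values in 25 of the 102 genes (24.5%) and above them in 13 (12.7%), against 15.9% and 21.2% of all listed genes. The median log2 fold change of the 70 tested genes was -0.03. The 102 listed genes summed to 213.1 and 214.5 RPKM in WT and to 206.8 and 204.7 RPKM in KI. Both KI sums thus lay below both WT sums (two-sided exact permutation p = 0.333, the smallest possible). The 3 genes of this list with the highest levels were Riiad1, with WT and KI means of 29.0 and 24.5 RPKM, Dnal1, with 18.2 and 17.7 RPKM, and Gas8, with 17.9 and 17.1 RPKM. Their adjusted p ran from 0.518 to 0.880 in limma.

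Of 15 regulators of multiciliogenesis, 12 were tested and 0 passed, also before adjustment at p under 0.05, with a median log2 fold change of -0.02. Both KI values lay below both WT values in 5 of the 15 (33.3%) and above them in 0. The shares of all listed genes were 15.9% and 21.2%. The 15 genes summed to 70.7 and 70.3 RPKM in WT and to 68.4 and 68.7 RPKM in KI. Tfdp1 and E2f4, partners in transcription that many cell types use, led the list with means of 21.9 and 17.0 RPKM in WT and 22.2 and 17.0 RPKM in KI. Rfx1, of the family that binds the X-box, had WT and KI means of 9.17 ± 0.47 and 9.23 ± 0.46 RPKM (SD, n = 2 each). For the intraflagellar transport and primary cilium genes, which neurons also use, 0 of 41 passed. Before adjustment 2 of the 41 were higher and 3 lower at a limma p under 0.05, against 6.3% and 3.33% of all tested genes. The highest of these were Arl3, Kifap3 and Kif3a, at 85.4, 70.0 and 48.7 RPKM in WT and 92.9, 69.2 and 47.6 RPKM in KI. Gpr161, a receptor of the primary cilium, had the smallest p of the list, with 16.9 and 16.8 RPKM in WT and 14.3 and 12.8 RPKM in KI (log2 fold change -0.30, unadjusted limma p of 0.00955, adjusted p = 0.405).

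Markers of the cells and regions that a dissected hippocampus can hold were set beside these values. Of 10 ependymal genes outside the axoneme, several of which astrocytes share, 9 were tested and 0 passed. Before adjustment 1 of the 9 was higher and 1 lower at a limma p under 0.05, and the shares of all tested genes, 6.3% and 3.33%, also apply to the region markers given after these. Their summed level was 141 and 142 RPKM in WT and 138 and 135 RPKM in KI. S100b, Aqp4 and Vim, the highest, were at 45.7, 29.7 and 16.2 RPKM in WT and 43.3, 26.4 and 15.8 RPKM in KI. Choroid plexus genes were distributed differently over the samples. Of the 22 in the list, 16 had their highest value in KI replicate 1, and the list summed to 69.7 and 82.9 RPKM in WT, 132.7 RPKM in KI replicate 1 and 66.1 RPKM in KI replicate 2. Ttr, the transthyretin gene that defines this epithelium, was at 8.13 and 13.8 RPKM in WT, 51.3 RPKM in KI replicate 1 and 8.89 RPKM in KI replicate 2. Folr1, Clic6, Kcnj13, Otx2, Slc4a5 and Aqp1 were at or below 1.17 RPKM in every sample, and Kcnj13 was absent from WT replicate 2, where it was set to 0. Without Ttr and Enpp2, which oligodendrocytes also express, the other 20 genes summed to 12.7 and 14.1 RPKM in WT and 18.9 and 14.8 RPKM in KI. Of the 9 tested choroid plexus genes 0 passed, and Kl was higher in both KI samples, at 7.05 and 6.72 RPKM against 4.87 and 5.14 RPKM in WT (unadjusted limma p of 0.00382, adjusted p = 0.340). Kl has the highest mean of the 20 genes summed above, so that sum depends on it. In KI replicate 2 Kl was high, whereas Ttr lay within its WT range. KI replicate 1 held the highest value of 11 of the 32 motile cilia genes. These were Foxj1, Dnah1, Dnah2, Dnah3, Ccdc114, Rsph1, Spag16, Tekt4, Ccdc113, Tmem212 and Mlf1. WT replicate 2 held the highest value of 10 others, and KI replicate 1 held the lowest value of 6. The share of all genes highest in KI replicate 1 was not taken. The median log2 fold change of the 9 tested choroid plexus genes was 0.09 with all samples and -0.07 without KI replicate 1. The part of choroid plexus in these values was not tested.

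**Figure D4:**
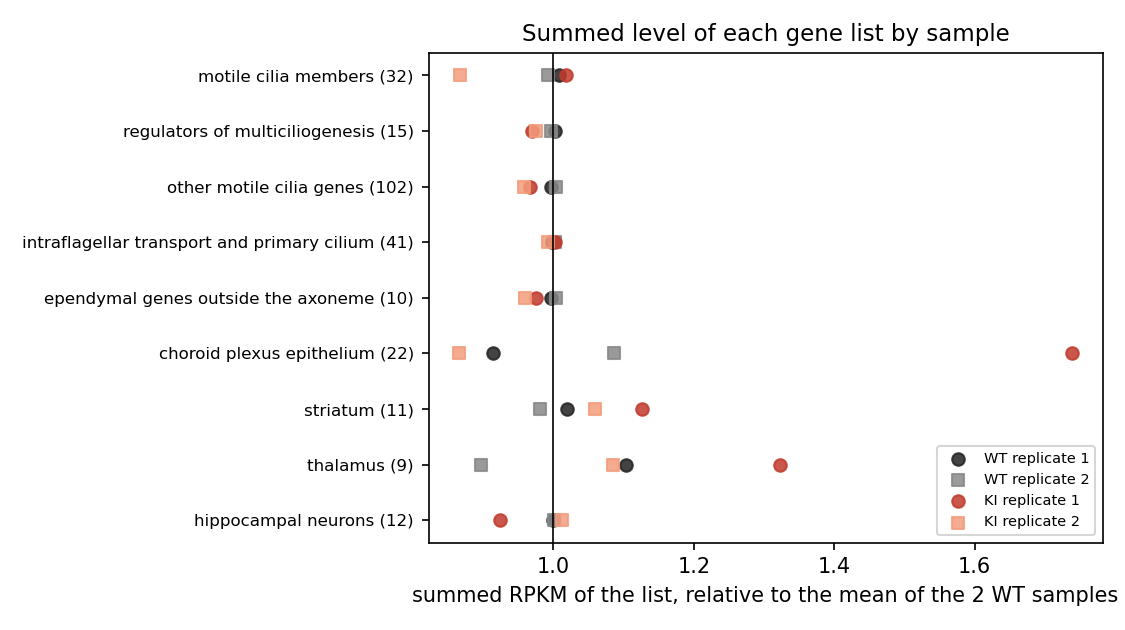
Summed RPKM of each gene list in each sample, divided by the mean of the 2 WT samples. Numbers in brackets are the genes listed. KI replicate 2 is the lowest sample for the 32 motile cilia genes and KI replicate 1 stands apart for the choroid plexus genes. The other ciliary lists stay close to 1. Both KI points still lie below both WT points for the other motile cilia genes, the regulators and the ependymal genes outside the axoneme. For the intraflagellar transport and primary cilium genes the groups overlap.

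Genes listed as markers of regions next to the hippocampus were also measured. In whole tissue, their expression within the hippocampus itself cannot be told apart from that of a neighbouring region. Of 11 striatum genes 9 were tested and 0 passed. Before adjustment 3 had a p under 0.05, all higher in KI, and the list summed to 52.0 and 50.1 RPKM in WT and 57.5 and 54.1 RPKM in KI. Penk, Ppp1r1b and Pde10a were the highest of these, at 21.4, 13.0 and 8.21 RPKM in WT and 21.96, 14.5 and 7.30 RPKM in KI. Drd2 had the smallest p of the list, with 1.30 and 1.24 RPKM in WT and 2.51 and 2.46 RPKM in KI (unadjusted limma p of 0.00182, adjusted p = 0.307). Of 9 thalamus genes 8 were tested and 0 passed. Before adjustment 2 had a p under 0.05, both higher in KI, and the list summed to 41.7 and 33.9 RPKM in WT and 50.002 and 41.0 RPKM in KI. Calb2, Prkcd and Zic1 led it, at 15.03, 7.18 and 3.72 RPKM in WT and 14.3, 10.7 and 7.97 RPKM in KI. Markers of the labelled tissue were abundant. Of 12 genes of hippocampal neurons 12 were tested and 0 passed. Before adjustment 3 had a p under 0.05, all lower in KI. Neurod6, C1ql2 and Wfs1 led this list at 116.6, 42.9 and 41.7 RPKM in WT and 121.5, 32.5 and 39.7 RPKM in KI. The KI mean of Wfs1 joins unlike samples, at 28.6 RPKM in KI replicate 1 and 50.9 RPKM in KI replicate 2. Its WT samples were at 42.2 and 41.2 RPKM. Prox1 and C1ql2, of dentate granule cells, had unadjusted p of 0.00937 and 0.00343 (adjusted p of 0.405 and 0.336 from limma) and were at ratios of KI to WT of 0.683 and 0.757. The part of tissue composition in the values of the motile cilia genes was not tested.

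The mean profile of the 32 genes, as centred log2(RPKM + 1), was 0.03 and 0.00 in WT, 0.05 in KI replicate 1 and -0.08 in KI replicate 2. Other genes with at least 1 RPKM on average were compared with this profile, after those with a small range relative to it were set aside. Among the 15201 left, those nearest by Euclidean distance over the 4 samples were Ubap2, Nav2, Idua, Enpp4 and Wdr44, at distances of 0.0053 to 0.0117. With 4 samples many genes share any such profile.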

How the data were processed

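Total hippocampal RNA was poly(A) selected and sequenced in pairs. Per the labels and the methods, the authors aligned reads to mm10 with GSNAP and kept uniquely and properly mapped pairs. The authors deposited RPKM per gene of Ensembl release 74, 1 file per sample, with genes without reads left out (set to 0 here). The counting tool is not given in the sources used here. The authors used edgeR. Because the deposited unit is RPKM and not counts, limma 3.58.1 (R 4.3.3) with a mean-variance trend was used here on log2(RPKM + 1), over the 18436 genes that reached 0.5 RPKM in 2 samples or more. It was tested on simulated data. Reads per gene were worked out from whole-number ratios between samples (relative tolerance 1e-07) and GENCODE M21 exon lengths (GRCm38, as mm10), serve as precision only, and cover counting error only. No count test was run on them. Nothing states that replicates were separate litters, so p-values measure the spread between these samples. Members and lists were chosen with earlier results of these data known. Each member is named. Of each other list, the 3 genes with the highest mean RPKM and up to 4 with a limma p under 0.01 are named, and Vwa3a, Morn5, Dnajb13 and the choroid plexus genes at low levels were chosen after their values were seen. Python 3.11.15, pandas 2.3.3, numpy 2.4.6 and scipy 1.17.1 were used. Other pseudocounts, filters, scalings, thresholds, a replicate block and the removal of each sample were tried as alternatives.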

Additional observations from a re-analysis of the deposited data

How the results depend on the processing

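The count of motile cilia genes past the threshold was 0 under every setting tried, which were a pseudocount of 0.1, no filter, a mean of at least 1 RPKM, quantile normalization, median-ratio scaling, no mean-variance trend, 1.5-fold, an adjusted p under 0.05, the replicate block and each sample left out. For all genes it was 20 without the mean-variance trend and 0 under the other settings. No gene of the marker and pathway lists passed with a pseudocount of 0.1, quantile normalization or a sample left out. Nothing states that samples with the same replicate number form a pair. The Pearson correlation of their deviations across genes was -0.025, but 2 samples a group cannot exclude a pairing. With the replicate block the count stayed at 0. In this balanced design a block cannot change a log2 fold change, so it is no check on the median of -0.03 of the motile cilia genes. That median lay between -0.07 (quantile normalization) and -0.01 under the settings tried. Of motile cilia genes with a mean of at least 1 RPKM, 1 lay above and 5 lay below both WT values in both KI samples. Of the 24 with at least 100 reads over the 4 samples, a setting chosen after seeing the data, 1 lay above and 9 below. Quantile normalization raised the 9 to 13. With 1 sample left out, which separates groups more easily, 4 to 11 lay above and 12 to 16 below. Shares over all genes were not taken under these settings, so these counts cannot be set against a background. The ratio of summed RPKM ran from 0.867 to 1.02 as samples were left out, and was 0.919 without members sharing 4% or more of their exon length with another gene, a setting chosen after seeing the data. Of the 24 tested members, 16 kept their direction throughout. Only the pseudocount, quantile normalization, median-ratio scaling and the removal of a sample can change a log2 fold change. The filters, the replicate block and the trend leave it as it is. Under quantile normalization Dnah2 turned to -0.0292, Zmynd10 to -0.0171 and Ccdc113 to -0.00755. As samples were left out, the log2 fold change ran from -0.0387 to 0.357 in Foxj1, -0.0604 to 0.0431 in Dnah1, -0.00162 to 0.0350 in Dnah2, -0.16 to 0.19 in Zmynd10, -0.29 to 0.19 in Rsph1, -0.0233 to 0.55 in Tekt2, -0.0559 to 0.14 in Ccdc113 and -0.60 to 0.36 in Tmem212. Leaving out a sample leaves 1 in its group, which limma assumes to vary like the other group. The cause was not tested. Depth limits the genes under 20 reads most, in WT replicate 2 above all.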
